A study of Homo sapiens with 3 samples.

Results

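The comparison was between U87WT and U87Mut after 24 h with IGF1, as measured on 1 array where Cy5 (red) carried the U87WT RNA and Cy3 (green) the U87Mut RNA. U87WT and U87Mut are clones of the human glioblastoma line U87-MG that were stably transfected with GFP-tagged IGF1R and selected with G418. U87WT expresses the wild-type receptor, whereas U87Mut expresses a receptor whose SUMO-acceptor lysines were changed to arginine (GFP-IGF1R1025x-1100x-1120x), which was made to keep it out of the nucleus. Both clones on this array had been serum-starved and given 50 nM IGF1 for 24 h, and the other 2 arrays of the study held the same clones after 24 h in serum-free medium or after 24 h of 50 nM IGF1 with OSI906, an inhibitor of the IGF1R kinase (0.5 µM in the sample title). Each genotype was 1 clone, untransfected U87 cells were not on the arrays, and every array carried the same dye orientation, so the receptor, the clone and any gene-specific dye effect cannot be told apart.

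A probe was included if both dyes gave a signal well above background on the IGF1 array and it lay outside a bright patch of Cy5 background. This held for 29119 of 58201 probes (50.0%), of which 21359 could be named through a RefSeq transcript and stood for 15885 of the 25006 genes named on the array. Unless stated otherwise, a gene was read from its brightest probe, and its value is the log2 ratio of U87WT over U87Mut after background correction and loess, so that 0 is no difference and 1 is a 2-fold higher level in U87WT. There was 1 array per condition and therefore no replicate of the IGF1 comparison. As a guide to error, probes printed 10 times on the array had a median SD of 0.0507 between their spots, different probes of 1 gene had a pooled SD of 0.232 (4259 genes), and the ratios of the serum-free and IGF1 + OSI906 arrays differed between these arrays with an SD of 0.144 per array. Ratios above 0.5 or below -0.5 were counted as higher or lower in U87WT.

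IGF1R is a receptor tyrosine kinase that signals through IRS adaptors, PI3K/AKT and the RAS/MAPK pathway, which raise nutrient uptake, lipid synthesis, protein synthesis and cell cycle entry and restrain FOXO transcription factors. A fraction of the receptor is modified by SUMO and moves to the nucleus, where it binds chromatin. In glioblastoma cells IGF1 supports growth, motility and survival.

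One technical feature stood apart on this array. Apart from the excluded patch (63 spots, Cy5 local background up to 66985), a second area near the right edge, between rows 248 and 301 and columns 149 and 164, contained 594 spots with a Cy5 local background between 50 and 962, against a median of 22 for the array. Of all spots with a Cy5 local background above 50, 340 were well above background and were kept, and 27.6% of them had a ratio above 0.5, compared with 5.06% of the 31204 other spots. The OSI906 array had 0 spots with such a background and the serum-free array had 317. The brightest probes of 187 genes had such a raised background, and any of these genes named here is given with its local background. The part of the raised background in their ratios was not tested.

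**Figure D1:**
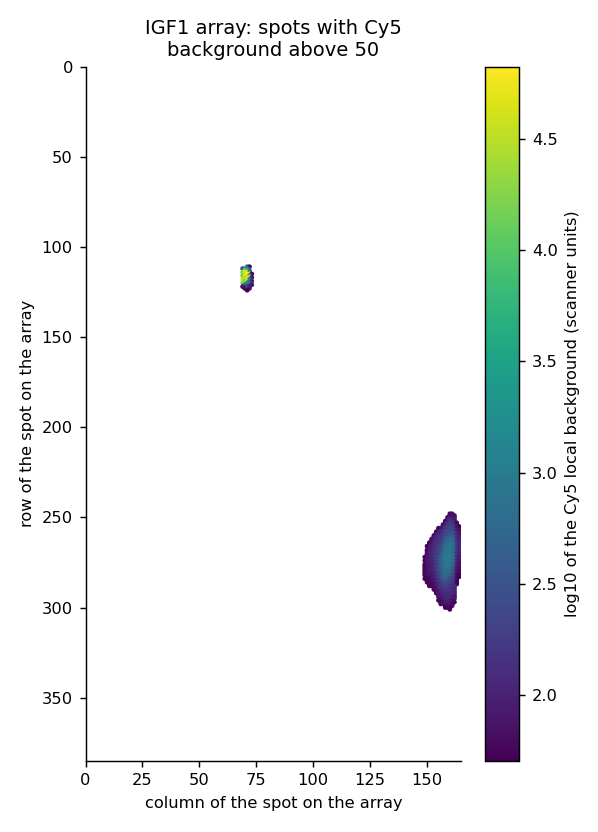
Position of every spot of the IGF1 array whose Cy5 local background was above 50 scanner units, by column and row, coloured by the log10 of that background. The small patch on the left was excluded, and the larger area on the right, with a background of at most 962, was kept.

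Of the 29119 probes, 1500 were above 0.5 (5.15%) and 1029 were below -0.5 (3.53%), and 239 were above 1 (0.821%) and 167 below -1 (0.574%). Among these calls 59.3% were higher in U87WT. This split depended on the scaling, since it was 95.1% when arrays were centred on the median in place of loess, 27.2% when the background model was fitted on all spots and 42.7% with the scanner software's own signals. Before loess the red signal exceeded the green by a median of 0.07 (log2) in the dimmest of 5 equal groups of spots and 0.67 in the brightest. By genes, 1133 of 15885 were above 0.5 (7.13%) and 727 below -0.5 (4.58%), and 179 were above 1 (1.13%) and 133 below -1 (0.837%). Limma's test of the IGF1 ratio against 0, which takes its spread from the other 2 arrays, was passed at a 5% false discovery rate by 1654 probes with more signal from U87WT (5.98% of 27641) and by 1220 with less (4.41%). Most genes past 0.5 that were measured on all 3 arrays had the same sign on all of them. This held for 1034 of 1128 above 0.5 and 634 of 720 below -0.5. Fewer were also past 0.5 on both other arrays. Of 1128 genes above 0.5 that were measured on all 3 arrays, 475 (42.1%) were also above 0.5 on both others and 389 (34.5%) on the IGF1 array alone, and of 720 genes below -0.5 the corresponding numbers were 367 (51.0%) and 217 (30.1%). Across 27641 probes the IGF1 ratios had a Pearson correlation of 0.673 with the serum-free ratios and of 0.652 with the OSI906 ratios, and these 2 correlated at 0.784; probes are not independent replicates, and all ratios share the 2 clones and the dye orientation.

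IGF1R itself had 1 probe, with a Cy5 signal of 520 and a Cy3 signal of 308 before correction. Its ratio was 0.23 with IGF1, 0.07 in serum-free medium and 0.09 with OSI906, so the transcript measured by this probe was within 0.5 between the clones on every array. The sign of the IGF1 value was not stable, as it was -0.12 when the background model was fitted on all spots and 0.57 with median centring. The position of the probe in the transcript was not known, so it may or may not read the transfected sequence, and it cannot distinguish the wild-type from the mutant receptor. Of 15 genes for IGF and insulin receptors, ligands and adaptors, 14 were measured. Of these, 2 (14.3%) were above 0.5, against 7.13% of all genes, and both encode adaptors or regulators of PI3K and RAS signalling. SHC1 had ratios of 0.61 (IGF1), 0.46 (serum-free) and 0.35 (OSI906), with 0.06 by its lowest probe, and PIK3R1, the regulatory subunit of PI3K, of 0.58, 1.00 and 0.38. IGFBP7, which encodes a secreted IGF-binding protein, was the only IGF-binding protein gene of 4 measured above 0.5, at 0.98 with IGF1, 0.68 in serum-free medium and 0.70 with OSI906. As for the identity of the cells, all 8 mesenchymal glioma markers of U87 were measured, with 1 above 0.5, 1 below -0.5 and a median of 0.07 (0.34 in serum-free medium), and VIM, LGALS1, CD44 and ANXA2 were among the bright probes in both channels, while the astrocyte markers GFAP, S100B and ALDH1L1 were not well above background in both dyes. The other astrocyte markers, SLC1A3 and AQP4, were measured at 1.95 and 0.13. The blood markers PTPRC and CD3E were close to background, with Cy5 signals of 43 and 38.

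Genes at both ends were ranked among those with a RefSeq mRNA accession whose measured probes all had the same sign. Y-linked genes and XIST were left out. The 20 lowest genes of this ranking, which ran from -2.27 to -1.61, were largely genes of S phase. They included 7 replication-dependent histone genes and the replication licensing and origin-firing genes CDT1, CDC45 and MCM7. All 20 were negative on all 3 arrays, and 19 were below -0.5 on all of them. CDC45, a subunit of the replicative helicase, had ratios of -1.82 with IGF1, -1.97 in serum-free medium and -1.60 with OSI906, with raw signals of 334 in Cy5 and 894 in Cy3 on the IGF1 array. CDT1, which loads the MCM helicase, had ratios of -1.80, -1.71 and -1.48 in the same order, and MCM7, a helicase subunit, had -1.61, -2.02 and -1.61. UHRF1, which couples DNA methylation to replication, was at -2.04, and E2F2, an activator of S-phase genes, was at -1.74. DTL, which targets CDT1 for degradation, was at -1.88. The raw Cy5 signal was below the raw Cy3 signal for each of these genes, on an array whose Cy5 signals were the brighter overall.

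**Figure D2:**
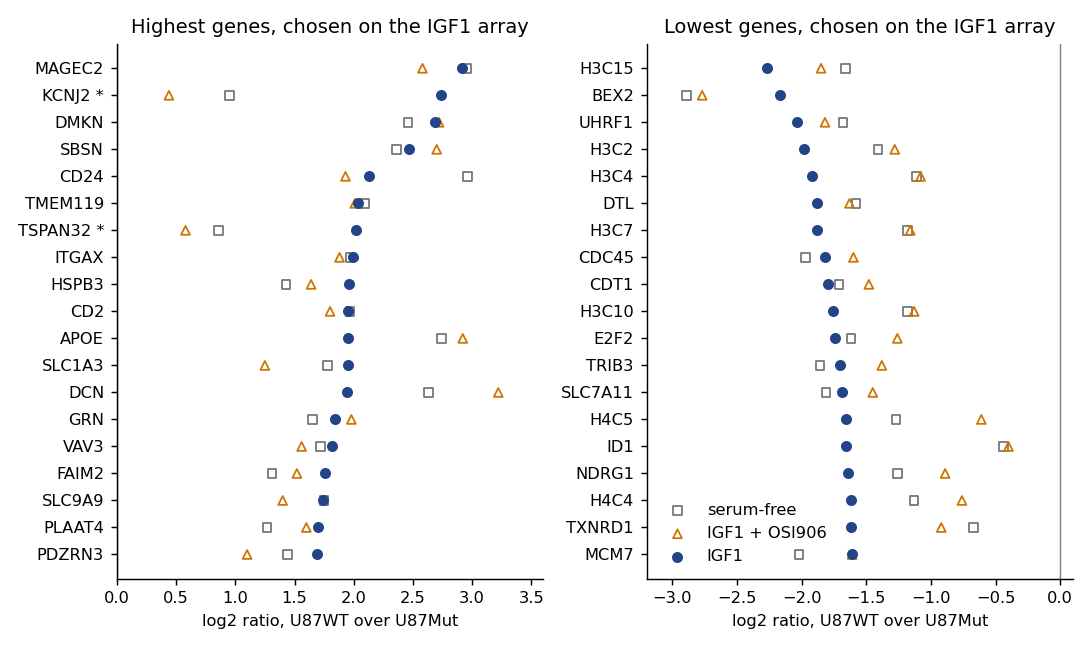
Log2 ratio of U87WT over U87Mut for genes among the 20 highest and the 20 lowest of the ranking on the IGF1 array (filled circles). Values of the same probes are shown for the serum-free (squares) and IGF1 + OSI906 (triangles) arrays. The ranking held genes with a RefSeq mRNA accession and measured probes of the same sign. The genes were chosen on the filled circles; those marked with an asterisk, KCNJ2 and TSPAN32, had a raised Cy5 local background, and all genes shown kept their sign on all 3 arrays.

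The whole DNA replication list followed the same direction. Of 34 measured genes, 31 (91.2%) were below -0.5 and 0 above 0.5, against 4.58% and 7.13% of all genes, and the median ratio was -0.94 compared with 0.02 for all genes. RPA1, encoding the large subunit of the single-strand binding complex, was the highest of the list at 0.02. The list median was nearly the same on the other arrays, at -1 in serum-free medium and -0.94 with OSI906, and it stayed negative under every alternative processing, from -1.30 to -0.60. CDC6 was seen well above background only in Cy3, with raw signals of 38 in Cy3 and 27 in Cy5, at least 1.28-fold higher in U87Mut. Of 35 measured mitosis genes, 26 (74.3%) were below -0.5 and the median was -0.66, with -0.57 and -0.56 on the serum-free and OSI906 arrays. BUB1B of the spindle checkpoint had ratios of -1.20, -1 and -1.35 (IGF1, serum-free, OSI906), and CCNB2, a mitotic cyclin, -1.20, -0.69 and -0.90. The only mitosis gene above 0.5 was TOP2A, encoding DNA topoisomerase II alpha, at 0.74 with IGF1 against -0.80 and -1.04 on the other arrays. Its spot had a Cy5 local background of 935.

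Of 17 cyclin, CDK and inhibitor genes, 5 (29.4%) were below -0.5, against 4.58% of all genes, and 0 above 0.5, but 10 were above 0 and the median was 0.02, a sign that changed under 2 alternatives. Those below included the G1 regulators CCND1 (-1.18 with IGF1, -1.39 in serum-free medium, -1.17 with OSI906), CCNE2 (-1.30, -1.11 and -0.91) and E2F1 (-0.87, -1.01 and -0.77). MYC, encoding a growth-promoting transcription factor, was likewise lower in U87WT, at -1.26, -1.27 and -1.09.

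Promoters of the gene lists were read from RefSeq (GRCh38.p14, the first start listed per gene, 250 bases before the start). The letters TTTGGCG or TTTCCCG, cores of the E2F site, were searched on both strands, where matches may overlap. They occurred in 12 of 28 promoters of measured replication genes (42.9%), in 3 of 30 of mitosis genes (10.0%), in 1 of 32 of histone genes (3.12%) and in 7.25% of the 12267 promoters of all measured genes. CCAAT, read on both strands, occurred in 16 of 28 (57.1%), 24 of 30 (80.0%) and 29 of 32 (90.6%) of the same promoters, and in 34.8% of all measured. These are matches of letters and not measured binding. Here and below, the measured genes of a list were counted whatever their ratio. The shares therefore describe the make-up of the lists and not the difference between the clones. The promoters of CDC45 and CDT1, shown as the lowest 2 replication genes with an E2F match, carry it within 40 bases of the start (capitals):
CDC45, chr22:19479670-19479919, plus strand: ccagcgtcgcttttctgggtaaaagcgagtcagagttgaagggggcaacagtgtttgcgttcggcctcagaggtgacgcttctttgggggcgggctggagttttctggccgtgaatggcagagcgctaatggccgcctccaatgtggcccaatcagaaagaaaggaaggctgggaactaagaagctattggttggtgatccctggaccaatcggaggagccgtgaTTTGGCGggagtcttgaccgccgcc
CDT1, chr16:88803539-88803788, plus strand: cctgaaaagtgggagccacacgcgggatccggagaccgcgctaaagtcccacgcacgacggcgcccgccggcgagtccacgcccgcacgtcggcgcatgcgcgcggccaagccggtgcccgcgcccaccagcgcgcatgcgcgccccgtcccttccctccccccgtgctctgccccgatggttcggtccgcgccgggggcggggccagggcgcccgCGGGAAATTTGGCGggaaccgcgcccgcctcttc

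Replication-dependent histone genes encode the core and linker histones that package newly replicated DNA and are transcribed in S phase. Of 35 measured, 21 (60.0%) were below -0.5 and 1 (2.86%) above 0.5, against 4.58% and 7.13% of all genes. Their median was -0.82, and it stayed between -0.97 and -0.41 under the alternatives. This group stood lower on the IGF1 array than on the others, where its medians were -0.51 (serum-free) and -0.37 (OSI906). Messenger RNAs of these genes end in a stem-loop and mostly lack a poly(A) tail, and other RNAs without a long tail were also lower on this array, with medians of -0.20 for snoRNAs against 0.00 on both other arrays and of 0.14 for snRNAs against 1.02 and 0.74. The part of RNA preparation and labelling in the histone values was not tested. For 29 of 35 genes (82.9%) the IGF1 ratio was the lowest of the 3 arrays, compared with 28.7% of all genes, whereas this was so for 8 of 34 DNA replication genes (23.5%). In all, 8 histone genes were below the mean of the other arrays by more than 0.5, against 1.92% of all genes. None of these 8 passed limma's test of that difference. H3C2 had ratios of -1.98 with IGF1, -1.41 in serum-free medium and -1.28 with OSI906, and H3C10 of -1.76, -1.18 and -1.13. H4C5 had -1.66, -1.27 and -0.61, and the linker histone gene H1-5 had -1.57, -1.56 and -0.99. H3C15, the lowest of the 20 lowest genes and not in the list, had -2.27, -1.66 and -1.85. The exception in the list was H2BC12, at 0.53, 0.55 and 0.74 by its brightest probe and -0.13 by another. Histone genes have near-identical copies that 1 probe may not separate, so the values of single copies are uncertain. The promoters of the lowest 2 listed genes both have CCAAT at 96 and 54 bases before the start (capitals), and the histone promoters had TATAAA on the gene's strand in 20 of 32 (62.5%), against 4.39% of all measured promoters:
H3C2, chr6:26032100-26032349, minus strand: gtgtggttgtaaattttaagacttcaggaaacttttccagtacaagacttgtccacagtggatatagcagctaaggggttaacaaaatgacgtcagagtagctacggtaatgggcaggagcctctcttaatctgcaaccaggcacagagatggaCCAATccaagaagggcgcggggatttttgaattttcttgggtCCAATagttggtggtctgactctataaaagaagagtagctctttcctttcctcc
H3C10, chr6:27809801-27810050, plus strand: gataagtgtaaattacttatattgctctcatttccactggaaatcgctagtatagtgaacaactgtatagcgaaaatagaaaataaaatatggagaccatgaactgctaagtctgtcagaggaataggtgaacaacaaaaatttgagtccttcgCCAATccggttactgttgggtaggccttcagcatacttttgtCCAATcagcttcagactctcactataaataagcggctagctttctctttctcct

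**Figure D3:**
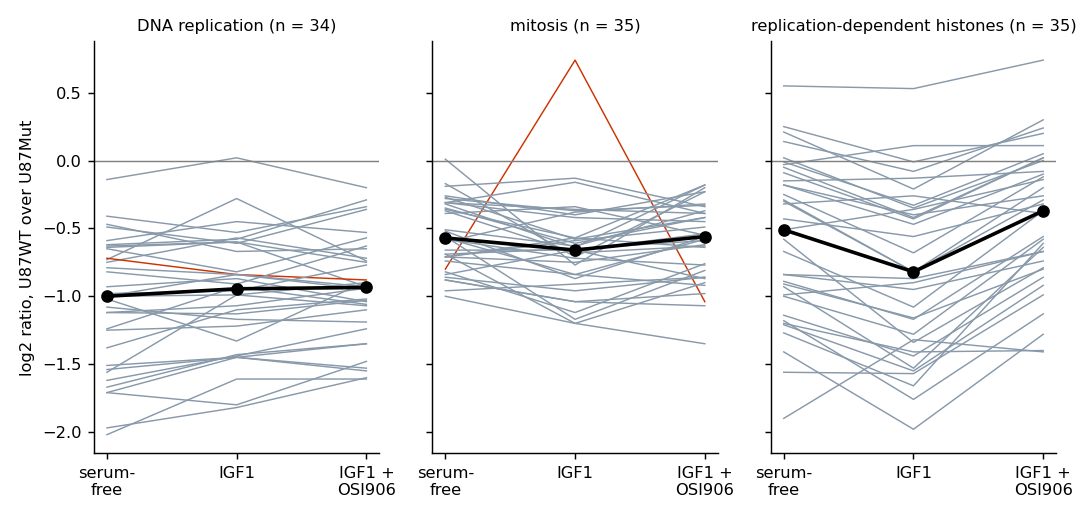
Log2 ratio of U87WT over U87Mut on the 3 arrays for each gene of the DNA replication, mitosis and replication-dependent histone lists (thin lines) and the list median (black). Red lines are genes with a Cy5 local background above 50 on the IGF1 array, of which the mitosis line that crosses 0 is TOP2A; the histone median is lower on the IGF1 array (-0.82) than on the others (-0.51 and -0.37).

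Genes of the amino acid and stress response were also lower in U87WT. ATF4 is a transcription factor that is induced when amino acids are short or proteins misfold and raises amino acid transporters, synthetases and stress regulators. Of 25 ATF4-induced genes, 12 (48.0%) were below -0.5 and 0 above 0.5, against 4.58% and 7.13% of all genes. Their median was -0.50, compared with -0.80 in serum-free medium and -0.54 with OSI906. Under the alternatives the median remained negative, between -0.67 and -0.07. TRIB3, a pseudokinase that inhibits AKT, had ratios of -1.70 (IGF1), -1.86 (serum-free) and -1.38 (OSI906). SLC7A11, the cystine transporter, had -1.69, -1.81 and -1.45. CHAC1, which degrades glutathione, had -1.52, -1.68 and -0.69, and DDIT4, an mTORC1 inhibitor, -1.29, -1.46 and -0.55, so for both genes the OSI906 value was nearer to 0. The list was not uniform, as ASNS and PSAT1, enzymes of asparagine and serine synthesis chosen here after their values were seen, were at -0.04 and 0.01 with IGF1 against -0.60 and -0.74 in serum-free medium. The letters TGATGNAA (amino acid response element, both strands) were in 4 of 22 promoters of the list (18.2%) and in 1.71% of all measured promoters. CCAAT was in 12 of these 22 promoters (54.5%), against 34.8% of all measured. CHAC1 is shown as the lowest gene with a match (capitals, on the opposite strand):
CHAC1, chr15:40953221-40953470, plus strand: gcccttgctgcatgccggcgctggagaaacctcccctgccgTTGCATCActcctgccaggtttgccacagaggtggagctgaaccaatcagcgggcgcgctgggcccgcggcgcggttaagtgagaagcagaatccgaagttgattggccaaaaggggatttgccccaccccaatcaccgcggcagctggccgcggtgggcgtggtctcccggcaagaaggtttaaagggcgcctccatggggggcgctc

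Of 23 antioxidant genes measured, 5 were above 0.5 (21.7%) and 7 below -0.5 (30.4%), against 7.13% and 4.58% of all genes, and the median was 0.02. SOD2, the mitochondrial superoxide dismutase, had ratios of 0.98 (IGF1), 1.16 (serum-free) and 1.70 (OSI906), the glutathione peroxidase gene GPX1 had 0.83, 1.25 and 1.14, CAT had 0.72, 0.69 and 0.98, and SOD1 had 0.71, 0.81 and 0.61. Among the lower genes, TXNRD1 (thioredoxin reductase) had -1.62, -0.67 and -0.92, SRXN1 (sulfiredoxin) had -1.42, -1.10 and -1.34, and SLC7A11 is given above. HMOX1, the heme oxygenase, was at -0.77 with a Cy5 local background of 65. TXNRD1 was the member that stood furthest below its other arrays, but limma's adjusted p for that difference was 0.139. The letters TGACNNNGC (antioxidant response element, both strands) were in 2 of 16 promoters of the antioxidant list (12.5%), near the 12.2% of all measured promoters. Of 21 hypoxia and angiogenesis genes, 6 (28.6%) were below -0.5, against 4.58% of all genes, while the list median was -0.04, a sign that reversed with median centring. Of 20 measured on all arrays, 12 (60.0%) were lowest on the IGF1 array, against 28.7% of all genes. NDRG1, a hypoxia-induced gene, had -1.64, -1.26 and -0.89, and VEGFA, the endothelial growth factor, had -1.36, -1.13 and -0.05, with -0.49 by its highest probe. LOX, which crosslinks collagen, was at -0.60 with IGF1 against 0.18 and 0.27, and limma's test of such differences was not passed by any of these 3 genes. VEGFC, a lymphatic growth factor, was the only gene of the list above 0.5, at 0.60.

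The 20 highest genes of the same ranking ran from 1.69 to 2.91, and all 20 were positive on all 3 arrays. Genes outside that ranking included LINC02008 (1.78) and LOC105372906 (1.7), both with a raised Cy5 local background. MAGEC2, a cancer-testis gene on chromosome X, was the highest, with raw signals of 678 in Cy5 and 38 in Cy3 and ratios of 2.91 with IGF1, 2.95 in serum-free medium and 2.58 with OSI906. DMKN and SBSN, neighbouring genes of chromosome 19 (positions 35497220 to 35513649 and 35523367 to 35528311 of GRCh38.p14) that encode secreted epidermal proteins, were at 2.69 and 2.47, with 2.46 and 2.36 in serum-free medium. Some of these genes are best known from macrophages or microglia. TMEM119 had ratios of 2.04 with IGF1, 2.09 in serum-free medium and 2.01 with OSI906, and the integrin gene ITGAX had 1.99, 1.97 and 1.88. APOE, the lipid carrier, had 1.95 with IGF1, lower than the 2.74 and 2.92 of the other arrays, and DCN, encoding the proteoglycan decorin, had 1.94 against 2.63 and 3.22. For neither gene did the difference between arrays pass limma's test (adjusted p 0.0928 and 0.203). SLC1A3, the glial glutamate transporter, had 1.95, 1.78 and 1.25 by its brightest probe, while its other probe read 0.00. KCNJ2 (2.74) and TSPAN32 (2.02) also ranked among the 20, but their spots had Cy5 local backgrounds of 189 and 511, and their ratios on the other arrays were 0.95 and 0.44, and 0.86 and 0.58. Another probe of TSPAN32, with a local background of 22, read 0.68 with IGF1 against 0.84 and 0.80. GRN, encoding the lysosomal growth factor progranulin, was the brightest of the 20, with a Cy5 signal of 103000 against 15000 in Cy3 and ratios of 1.84, 1.65 and 1.98.

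Lysosomal and antigen presentation genes lay above the average of all genes, of which 7.13% were above 0.5 and 4.58% below -0.5. Of 28 lysosomal genes, 9 (32.1%) were above 0.5 and 0 below -0.5, and beside GRN these included the cathepsins CTSK (1.67 with IGF1, 1.47 in serum-free medium, 1.03 with OSI906) and CTSF (0.95, 1.09 and 1.04) and the peptidase gene TPP1 (0.76, 0.30 and 0.29, with -0.09 by another probe). Of 20 antigen presentation genes, 8 (40.0%) were above 0.5 and the median was 0.42, with 0.22 and 0.33 on the serum-free and OSI906 arrays. Of the 20, 14 had their highest ratio with IGF1, compared with 44.0% of all genes. HLA-DMA, a class II peptide loader, had 0.88 (IGF1), 0.33 (serum-free) and 0.46 (OSI906), and HLA-C, a class I heavy chain, had 0.75, 0.57 and 0.67. TAPBP, which loads class I peptides, was at 0.75 with a local background of 681, and at 0.05 by another probe. HLA genes are polymorphic and closely related, so a probe may read several of them. Among 34 interferon-stimulated genes, 6 (17.6%) were above 0.5 and 2 (5.88%) below -0.5, the latter near the 4.58% of all genes. The antiviral gene MX2 was at 1.46, 1.02 and 1.20 and the nuclease gene ISG20 at -0.67, -0.70 and -0.45. The medians of the lysosomal and antigen presentation lists stayed positive under all alternatives, from 0.19 to 0.79 and from 0.21 to 1.03.

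Of 19 cytokine and chemokine genes, 6 (31.6%) were above 0.5 and 1 (5.26%) below -0.5, against 7.13% and 4.58% of all genes. The neutrophil chemokine gene CXCL1 had 1.64, 1.73 and 2.41 (0.37 by another probe) and CCL2, which attracts monocytes, had 1.26, 1.26 and 2.19, so both were most different with OSI906. NFKBIA, the NF-kappa-B inhibitor induced by that pathway, had 1.11, 1.09 and 1.30. CXCL2 went the other way, at -0.89 with IGF1, -0.11 in serum-free medium and 0.51 with OSI906. ICAM1, the leukocyte adhesion receptor, was well above background only in Cy5 (raw signals of 187 and 27.2) and was at least 3.04-fold higher in U87WT. It was the only one of 35 such genes with a bound of 2-fold or more whose spot had no raised Cy5 local background, and it is named for that reason after its value was seen.

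Matrix and mesenchymal genes above 0.5 outnumbered those below -0.5, although most members lay between these limits. For all genes the shares were 7.13% above 0.5 and 4.58% below -0.5. Of 25 matrix glycoprotein and proteoglycan genes, 11 (44.0%) were above 0.5 and 2 below -0.5, with a median of 0.37, which ranged from 0.08 to 0.76 under the alternatives. EFEMP1 (fibulin-3) had 1.18 with IGF1, 2.03 in serum-free medium and 1.41 with OSI906, SPARC (osteonectin) had 1.16, 1.46 and 0.91, and LAMA4, a laminin chain, had 1.01, 0.93 and 1.04, although its probes ranged from 0.00 to 1.16. TNC, encoding tenascin-C, was lower, at -0.77, -0.91 and -1.03. Of 19 collagen genes, 6 (31.6%) were above 0.5 and 0 below -0.5, with a median of 0.22 that was 0.00 with the background model fitted on all spots, led by COL8A1 (1.12, 1.07 and 0.82), COL12A1 (1.06, 0.78 and 0.72, with 0.22 by another probe) and COL6A1 (0.90, 0.79 and 0.63). Among 19 matrix protease and inhibitor genes, 6 were above 0.5 and 0 below -0.5, but 10 were above 0 and the median was 0.07. Of the 6, 5 had no raised Cy5 local background. Those above 0.5 included the gelatinase gene MMP2 (1.15, 0.92 and 0.94) and the plasminogen activators PLAT (1.00, 0.12 and 0.59) and PLAU (0.99, 0.80 and 0.56). Of 24 mesenchymal and contractile genes, 9 (37.5%) were above 0.5 and 0 below, including the myosin light chain gene MYL9 (1.30, 1.15 and 1.27) and TWIST1, a transcription factor of mesenchymal cells (0.84, 1.21 and 0.76, with 0.19 by another probe).

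**Figure D4:**
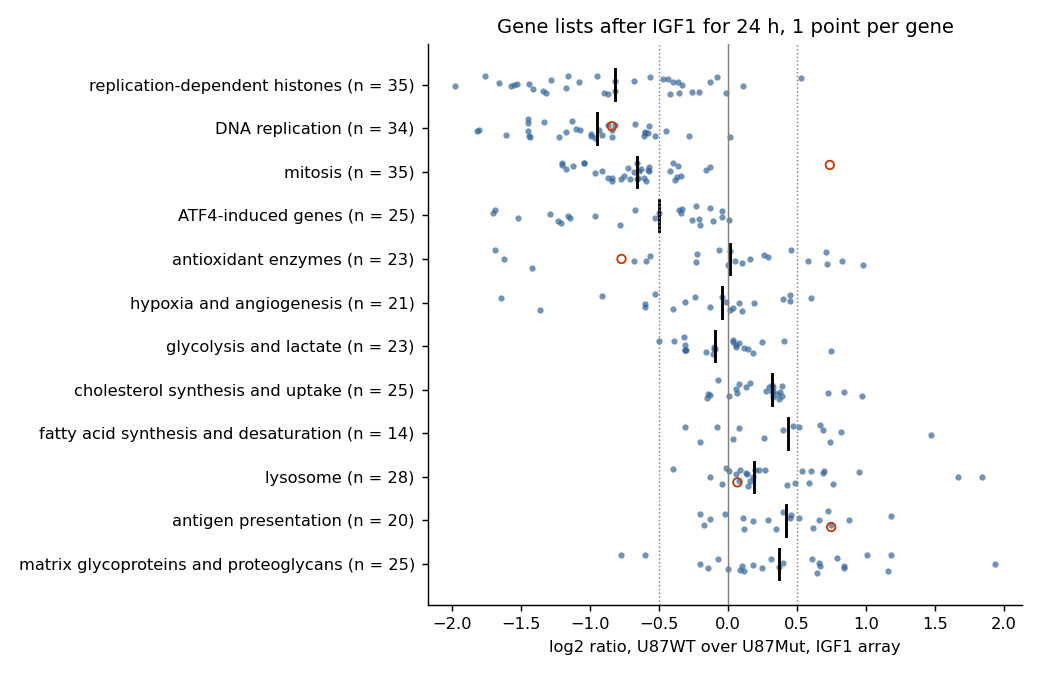
Log2 ratio of U87WT over U87Mut on the IGF1 array for every measured gene of 12 lists (1 point per gene), with the list median as a black bar and dotted lines at -0.5 and 0.5. Open red circles are genes with a Cy5 local background above 50. Histone, DNA replication, mitosis and ATF4-induced genes lie to the left of 0, and lysosomal, antigen presentation, fatty acid synthesis and matrix genes to the right.

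The lipid lists differed among themselves. Across all genes, 7.13% were above 0.5 and 4.58% below -0.5. Of 14 measured fatty acid synthesis and desaturation genes, 6 (42.9%) were above 0.5 and 0 below -0.5, with a median of 0.43 against 0.20 in serum-free medium and 0.29 with OSI906. This median was 0.05 with the background model fitted on all spots. SCD, the stearoyl-CoA desaturase, had 1.47 with IGF1, 0.89 in serum-free medium and 0.75 with OSI906. FADS1, another desaturase, had 0.82, 0.43 and 0.85, FASN, the fatty acid synthase, 0.74, 0.34 and 0.86, and ACSS2, which makes acetyl-CoA from acetate, 0.69, 0.32 and 0.28. SREBF1, the transcription factor of this pathway, had 0.67, 0.89 and 0.60 by its brightest probe and -0.03 by its other probe. Of 25 genes of cholesterol synthesis and uptake, 3 were above 0.5 and 0 below -0.5, but 21 were above 0 and 18 (72.0%) had their highest ratio with IGF1, against 44.0% of all genes. The median was 0.32 with IGF1, -0.15 in serum-free medium and 0.02 with OSI906, although it was 0.00 when the background model was fitted on all spots. DHCR7, the last enzyme of the pathway, had 0.97, 0.12 and 0.71, STARD4, a sterol carrier, 0.84, 0.36 and 0.52, and LSS, lanosterol synthase, 0.73, 0.37 and 0.57. MSMO1, a sterol oxidase, was at 0.33 against -0.63 and -0.69, the clearest of these differences in the list, which did not pass limma's test (adjusted p 0.0558). Of 12 acyl-CoA synthetase genes, 6 (50.0%) were above 0.5 and the median was 0.38 (0.03 with the model fitted on all spots). Those above 0.5 included the mitochondrial ACSF2 (1.16, 0.88 and 0.85) and ACSL3 of lipid droplets (0.78, 0.10 and 0.12). Of 25 glycerolipid and phospholipid synthesis genes, 5 were above 0.5 and 1 below -0.5, and the median was 0.04. Among these genes LPCAT3, which attaches polyunsaturated chains, had 1.09, 0.89 and 0.95, PLPP3, a lipid phosphatase, 1.21, 0.90 and 0.90, and LPIN1, which makes diacylglycerol, 0.78, 0.05 and 0.44 (another probe -0.39), whereas PLPP2 had -0.90, -1.09 and -1.16. CH25H, which makes 25-hydroxycholesterol, had 1.55, 1.78 and 1.68.

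Of the 47 genes that the study names, most of them in lipid and glucose metabolism, 44 were measured, 13 were above 0.5 and 3 below -0.5, with a median of 0.09; since they were chosen on these samples, the count is no independent evidence of a direction.

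Of 23 glycolysis and lactate genes, 1 was above 0.5 and 0 were below -0.5, and the median was -0.09, a value that became 0.55 with median centring, where the median of all genes was 0.28. The gene above 0.5 was PFKFB2, a regulator of glycolysis, at 0.75, 0.63 and 0.57. LDHA, lactate dehydrogenase A, was at -0.32, -0.38 and -0.40, and SLC2A1, the glucose transporter GLUT1, at -0.31, -0.35 and 0.11, and both signs reversed with median centring. SLC16A3, the lactate exporter, was at -0.50, -0.22 and 0.33. Respiratory chain genes had 2 of 73 above 0.5 (2.74%) and 0 below, with a median of 0.05. Of 74 ribosomal protein genes, 11 (14.9%) were above 0.5, against 7.13% of all genes. Their medians were 0.21 with IGF1 and 0.25 on each of the other arrays. Of 28 TCA cycle and pyruvate dehydrogenase genes 27 were measured, with 4 above 0.5 (14.8%, against 7.13% of all genes) and 1 below -0.5 (3.70%, against 4.58%).

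To see where the IGF1 array differed from the others, its ratio was set against the mean of the serum-free and OSI906 ratios. By genes, 412 of 15336 were more than 0.5 above that mean (2.69%) and 295 were more than 0.5 below it (1.92%). By probes, 591 of 27641 were above (2.14%) and 575 below (2.08%). In limma's test, which takes the spread from the 2 other arrays and assumes that the lone IGF1 array varies as they do, 36 of 27641 probes were higher (0.13%) and 10 lower (0.0362%) at a 5% false discovery rate. All 36 higher probes and 1 of the 10 lower ones had a Cy5 local background above 50, and without such spots the test called 0 probes in either direction, with 3235 of 27641 probes at an unadjusted p under 0.05 before they were left out. The 10 genes with the largest positive difference all had a raised Cy5 local background. They were KCNJ2, LINC02008, PPIP5K1P1-CATSPER2, TOP2A, LOC105372906, ASAH1-AS1, KDM6B, CNTRL, PRDM13 and PLEKHA5, with values of it between 189 and 962.

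On the lower side, TXNIP showed the clearest difference. TXNIP is a glucose- and FOXO-responsive inhibitor of thioredoxin and of glucose uptake. Its ratio was -1.43 with IGF1, against 0.39 in serum-free medium and 0.19 with OSI906, on a spot with a local background of 21 (adjusted p 0.0104 by limma with all spots). It thus was 2.69-fold lower in U87WT with IGF1 and slightly higher in U87WT on both other arrays. ID1, an inhibitor of differentiation factors and a target of BMP signalling, had -1.66 against -0.44 and -0.40 (adjusted p 0.0249). CCNK, the cyclin of CDK12, had -0.63 against 0.42 and 0.59 (adjusted p 0.0448) by its brightest probe, while its other probe read 0.06. When the spots with a raised Cy5 background were left out, the IGF1 ratios of these 3 genes were the same, at -1.43, -1.66 and -0.63, but none of them passed the test. DEPP1, a FOXO target, had -1.12 against -0.21 and 0.08, FOSL2, an AP-1 subunit, had -0.23 against 0.99 and 0.70, and PTX3, a secreted pattern receptor, had -0.70 against 0.00 and 0.62, and these 3 did not pass the test. As a group the 18 measured FOXO-induced genes did not share this: 4 (22.2%) were above 0.5 and 2 (11.1%) below -0.5, against 7.13% and 4.58% of all genes. The 2 below were TXNIP and GADD45A (-1.17), and BCL6, a repressor, was at 0.96, 0.76 and 0.61. The carbohydrate response element, a pair of E-box-like letter groups searched on both strands, was in 15 of 12267 promoters of measured genes (0.122%). It was in 0 of 20 promoters of glycolysis and lactate genes. The TXNIP promoter was among the 15 (capitals):
TXNIP, chr1:145996580-145996829, minus strand: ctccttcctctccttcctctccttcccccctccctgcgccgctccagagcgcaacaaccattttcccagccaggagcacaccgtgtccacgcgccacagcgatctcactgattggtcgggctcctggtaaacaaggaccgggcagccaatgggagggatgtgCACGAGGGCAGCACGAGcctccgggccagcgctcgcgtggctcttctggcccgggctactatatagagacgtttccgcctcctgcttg

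Among protein-coding genes without a raised background, a restriction added after the data were seen, large positive differences were seen for CLMP, a junction protein (0.86 against -0.50 and 0.23). BAX, which permeabilizes mitochondria, had -0.04 against -1.15 and -0.79, and KRT80, a keratin, had -0.87 against -1.80 and -1.81. None of the 10 genes with the largest differences of this kind passed limma's test.

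**Figure D5:**
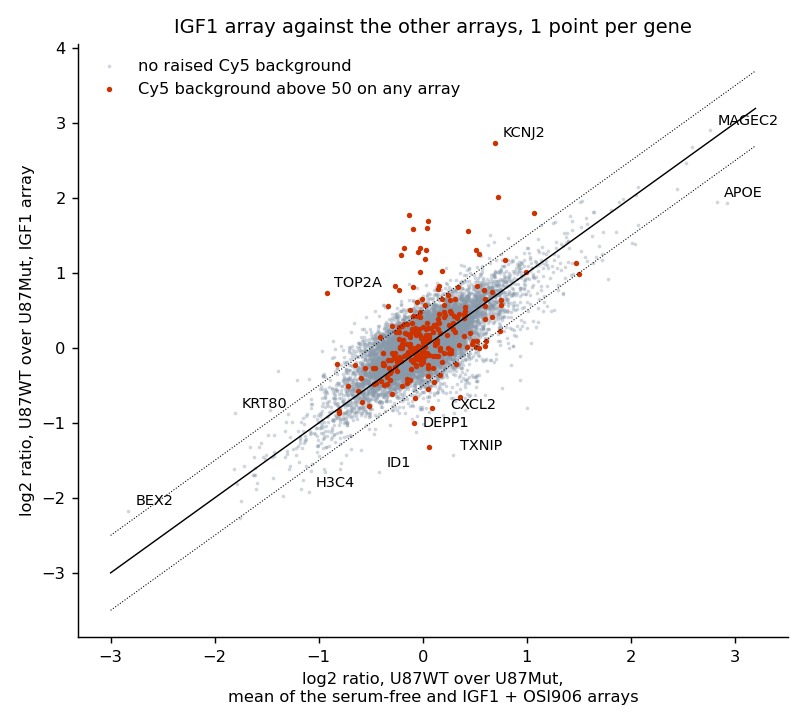
Log2 ratio of U87WT over U87Mut on the IGF1 array (vertical axis) against the mean of the serum-free and IGF1 + OSI906 arrays (horizontal axis) for genes well above background on all 3 arrays, 1 point per gene. The solid line marks equality, the dotted lines a difference of 0.5, and red points have a Cy5 local background above 50 on any array; these make up the points furthest above the line, while TXNIP and ID1 lie below it without a raised background.

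Small non-coding RNAs were shifted downward on the IGF1 array. Of 224 snoRNA genes, which guide modification of ribosomal RNA, 31 (13.8%) were below -0.5 and 2 (0.893%) above 0.5, against 4.58% and 7.13% of all genes, and their median was -0.20 against 0.00 on both other arrays. Among 220 measured on all arrays, 140 (63.6%) had their lowest ratio with IGF1, against 28.7% of all genes. Of 13 snRNA genes, 10 were below the mean of the other arrays by more than 0.5, against 1.92% of all genes. The medians of the 13 were 0.14 with IGF1, 1.02 in serum-free medium and 0.74 with OSI906. On the IGF1 array itself, 4 of the 13 (30.8%) were above 0.5 and 3 (23.1%) below -0.5. Among the 10 were SNAR-B2, SNAR-D, SNAR-F, SNAR-G1, SNAR-G2 and SNAR-H, copies of 1 family that a probe may not separate, so the 10 are not independent. RNA5-8SN5, a ribosomal RNA, had -0.80, 1.35 and 0.66, and RN7SL1, the RNA of the signal recognition particle, -0.42, 1.38 and 0.50, the latter with a sign that reversed under 2 alternatives. RNA18SN5, another ribosomal RNA, had -0.02, -1.24 and 0.25, so its lowest ratio was in serum-free medium. These RNAs carry no long poly(A) tail, so their signal also depends on the RNA preparation and labelling of each sample, whose part was not tested.

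By position in the genome (GRCh38.p14), medians per chromosome were between -0.02 and 0.11, the highest for chromosome 21 (182 genes, 24 above 0.5 and 3 below -0.5, with 0.04 and 0.08 on the serum-free and OSI906 arrays). Among 320 windows of 40 neighbouring coding genes the median ranged from -0.45 to 0.28. The lowest was the histone cluster of chromosome 6, from H2AC4 to ZNF184 (26033092 to 27473105), and the highest was on chromosome 5 from RETREG1 to C7 (16473053 to 40984643), where 30 of 40 genes were above 0 and the medians on the other arrays were both 0.24.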

How the data were processed

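RNA of the 2 clones was hybridised to Agilent SurePrint G3 Human Gene Expression v3 2-colour arrays, 1 per condition. Per the file headers, the authors' scanner files were made with Feature Extraction 12.0.3.1, and all 3 arrays lay on 1 slide. The deposited files give median signal and local background intensity per spot and dye, with quality flags, and the scanner software's processed signals with their log10 ratio (Cy5 over Cy3), used only as an alternative. The authors also deposited normalized log2 ratios, which were not used here. Background was corrected with normexp (limma 3.58.1, R 4.3.3, offset 50) fitted without spots flagged as non-uniform, and log2 ratios were loess-normalized within each array (span 0.3). Control spots, outlier spots and spots within 1 row or column of a Cy5 background above 1000 were left out; spots of 1 probe were averaged. Genes were named by RefSeq transcript and read from the brightest probe. limma (lmFit, eBayes, Benjamini-Hochberg) was fitted to 27641 probes with coefficients for the IGF1 array and the mean of the others, which left 1 residual degree of freedom per probe. p-values measure only the spread between these arrays. The offset shrinks dim ratios. In data simulated for the 29119 probes of the IGF1 array, 22 bright and 45 dim probes had a true change of 2 (log2). Their median readings were 1.82 and 0.75. The number of arrays limits the precision, so a difference that did not pass limma's test is not shown to be absent. Named genes were those the study names, the 20 highest and lowest, the 10 with the largest differences from the other arrays in each direction and up to 4 per list and direction. The 20 highest and lowest were ranked among genes with a RefSeq mRNA accession and measured probes of the same sign, without Y-linked genes and XIST. Members and lists were chosen with earlier results of these data known. Alternatives are given in the closing section; the deposited label gives 2 different OSI906 doses, and the title's was used. Values of a few genes are not reported here.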

Additional observations from a re-analysis of the deposited data

Results flagged for a closer look

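The ratio on the IGF1 array differed from the mean of the serum-free and OSI906 ratios for 15 named genes. For all of them except RNA5-8SN5 the difference passed limma's test at a 5% false discovery rate. Among those with an ordinary Cy5 local background, TXNIP was 1.72 below that mean (difference -1.72), ID1 had -1.24 and CCNK had -1.14. With the spots of raised background left out of the fit their IGF1 ratios were unchanged (-1.43, -1.66 and -0.63), but limma no longer called them. RNA5-8SN5 had -1.80, with a negative ratio with IGF1 and positive ratios on both other arrays, and its adjusted p by limma was 0.0611.

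All the positive differences belonged to spots with a raised Cy5 local background on the IGF1 array. The differences were 2.04 for KCNJ2, 1.92 for LINC02008, 1.68 for PPIP5K1P1-CATSPER2, 1.66 for TOP2A, 1.65 for LOC105372906 and 1.55 for ASAH1-AS1. They were 1.51 for KDM6B, 1.45 for CNTRL, 1.37 for PRDM13, 1.32 for PLEKHA5 and 1.30 for TSPAN32. Other probes of some of these genes read lower on the IGF1 array. For TSPAN32 another probe, with a local background of 22, had 0.68 with IGF1 against 0.84 and 0.80 on the serum-free and OSI906 arrays, and so no positive difference. The lowest probe was at 0.18 for PLEKHA5 (1.28 by the brightest), at -0.34 for CNTRL (1.24) and at -0.04 for ASAH1-AS1 (1.6). For the others the part of the background was not tested.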

How the results depend on the processing

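No paired analysis was possible because each condition has 1 array and the labels give no replicate numbers. The count of probes above 0.5 was 6978 with a limit of 0.5 SD of the array, 239 with a limit of 1, 923 genes by the mean of their probes, 544 with the background model fitted on all spots, 3013 with offset 0, 3265 with the scanner's signals and 6218 with median centring. The count below -0.5 was 6268, 167 and 649 in the first 3 of these settings, 1589 with offset 20, 2916 with offset 0, 1656 without background correction, 4376 with the scanner's signals and 319 with median centring. For the IGF1 ratio minus the mean of the other arrays, 591 probes were above 0.5 and 575 below -0.5. Above and below in turn, these counts were 274 and 330 when each other array had to be passed by 0.5, 48 and 35 with a limit of 1, 964 and 983 with offset 20, 2054 and 2028 with offset 0, 1108 and 1132 without background correction, 2363 and 3090 with the scanner's signals and 8432 and 83 with median centring. With the model fitted on all spots 1389 were below. Leaving out the serum-free or the OSI906 array gave 792 to 817 above and 626 to 775 below. Limma against 0 called 1654 probes higher and 1220 lower; 506 were higher with the model fitted on all spots, 233 higher and 99 lower with the scanner's signals, and 82 lower with median centring. Limma against the other arrays called 36 higher and 10 lower. Higher and lower in turn, it called 95 and 114 with an intensity trend, 0 and 0 with the model fitted on all spots, 86 and 120 with offset 20, 60 and 18 with offset 0, 145 and 78 without background correction, 14 and 0 with median centring, and 20 and 1 with the median of an 8 by 8 grid subtracted. It called 0 lower with the scanner's signals. With spots of Cy5 background above 50 left out, an alternative chosen after seeing the data, it called 0 and 0. PSMC1 turned to 0.06 with median centring, and SNORD114-15, with a Cy5 local background of 495, to 1.73 without background correction and 1.92 with the scanner's signals. Of the list medians under these settings 250 moved by less than the spread between arrays and 65 by more; for single named genes these numbers were 1241 and 658. The cause of these changes was not tested. Dim probes have compressed ratios, and differences between conditions rest on 1 array each.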
